A study of Canis lupus familiaris with 51 samples.

Results

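Macrophages are resident in normal skin and are recruited into skin tumors from blood monocytes, and they are recognized by the genes of their surface receptors and of the complement subunit they secrete. CSF1R is the receptor through which the cytokines CSF1 and IL34 keep macrophages alive; CD14 presents bacterial lipopolysaccharide to the innate immune receptors; CD163, MSR1, MRC1 and MARCO are scavenger or lectin receptors that take up hemoglobin, modified lipoproteins, glycoproteins and particles. CD68 is a lysosomal glycoprotein, AIF1 (also called IBA1) an actin-binding protein, TYROBP (DAP12) an adaptor of activating receptors, and C1QA a chain of the complement component C1q, most of which is made by tissue macrophages.

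These 10 genes were described in 51 cutaneous mast cell tumors (MCTs) of pet dogs, spontaneous skin tumors in which mast cells are the neoplastic cells and macrophages part of the infiltrate. The members were all probes that carried the gene's symbol in the array annotation, which gave 14 probes of 9 genes, and 1 probe of MRC1 that was found through its RefSeq gene ID, so that 15 probes of 10 genes were measured among 43603 probes under 35597 gene names or transcript IDs. CD68, CD163, CD14, CSF1R and AIF1 had 2 probes each.

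Each tumor was hybridized to its own single-color Agilent array. The RNA came from an aliquot of the central part of the mass, taken in a diagnostic or therapeutic procedure, and so from all cells in that aliquot. The reference samples were 5 undifferentiated MCTs (high histological grade with a high mitotic index, dogs of 5 to 13 years) and 13 differentiated MCTs (low grade with a low mitotic index, 3 to 13 years). The other 33 tumors, on whose grade the pathologists had not agreed, were assigned by the study from the expression of a small marker set on these same arrays, which put 7 with the undifferentiated class (6 to 14 years where stated) and 26 with the differentiated class (4 to 13 years where stated). The dogs were of many breeds, 19 male and 30 female, with the sex of 2 not given; no untreated or normal skin was on the arrays, and the class of each tumor came from the study's lists, the sample labels giving the case number only. The tumor LM0 was placed in the undifferentiated reference group by elimination, being the sample left over for the reference case left over, and results that rest on it are also given without it.

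The deposited intensities were put on a log2 scale and normalized to the same distribution on every array, so that a difference of 1 is a 2-fold difference in signal. Between 59.4% and 74.8% of the spots of an array were well above background, and the correlation between any 2 arrays over all probes was 0.906 to 0.988. All 8 mast cell genes of the marker list that were on the array were above background in at least 26 tumors. The arrays were scanned in 9 sessions, of which 7 held tumors of both classes. A probe was called when the tumors differed by 2-fold or more and limma gave a Benjamini-Hochberg adjusted p under 0.01. Because whole tissue was measured, fewer macrophages, less RNA of a gene per macrophage and a change in its RNA from other cells cannot be told apart.

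Of the probes with class differences described here, 4 are shown, 5′ to 3′ in lower case with no base marked, because what each 60-base oligonucleotide can bind decides what its signal counts. They are both probes of CSF1R, 1 of the 2 called probes of CD14, and that of C1QA, which was not called. The array annotation placed them at chr4:62209979-62210164 and chr4:62191030-62191756 (CSF1R, plus strand), chr2:38641601-38641660 (CD14, minus strand) and chr2:79560787-79560846 (C1QA, minus strand), on a dog genome build that the files do not name; exon and UTR annotation was not used here.

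CSF1R A_11_P0000032429: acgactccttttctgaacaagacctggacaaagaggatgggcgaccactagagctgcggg

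CSF1R A_11_P156148: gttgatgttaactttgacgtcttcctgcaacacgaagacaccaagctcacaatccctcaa

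CD14 A_11_P054431: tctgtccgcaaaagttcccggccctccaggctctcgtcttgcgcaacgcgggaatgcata

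C1QA A_11_P0000023402: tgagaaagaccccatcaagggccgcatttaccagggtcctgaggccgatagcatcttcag

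Both CSF1R probes cover more genome than their own length, 186 and 727 bases for 60 bases of probe, so each crosses a splice junction and matches spliced transcript. The CD14 and C1QA probes each lie on 60 bases in a row. No member probe was saturated on any array.

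The 10 genes differed widely in signal, and signals of different probes are not set against each other here. All member probes except MARCO and the second CSF1R probe were above background in all 51 tumors; the second CSF1R probe (A_11_P156148) was above it in 50, and MARCO, a receptor of particular macrophage subsets, in 25. The spread between tumors was widest for MARCO, whose log2 level ran from 2.01 to 13.29 with a standard deviation of 2.34. Spreads were ranked against the 29918 probes above background on 26 arrays or more, and that of MARCO exceeded 98.7% of them. MARCO itself, above background on 25 arrays, is not among those probes. CD163 (SD 1.03, range 9.18 to 13.35) and CD14 (A_11_P174363, SD 1.02, range 9.75 to 14.50) followed, at percentiles of 88.7 and 88.4 of those probes. The standard deviation of CD68 was the smallest of the members, 0.50 over a range of 10.27 to 12.37, at a percentile of 56.2. The main probes of the other genes were at a percentile of 74.2 (TYROBP) or above, so that all of these genes varied more between tumors than the median of those probes did.

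**Figure D1:**
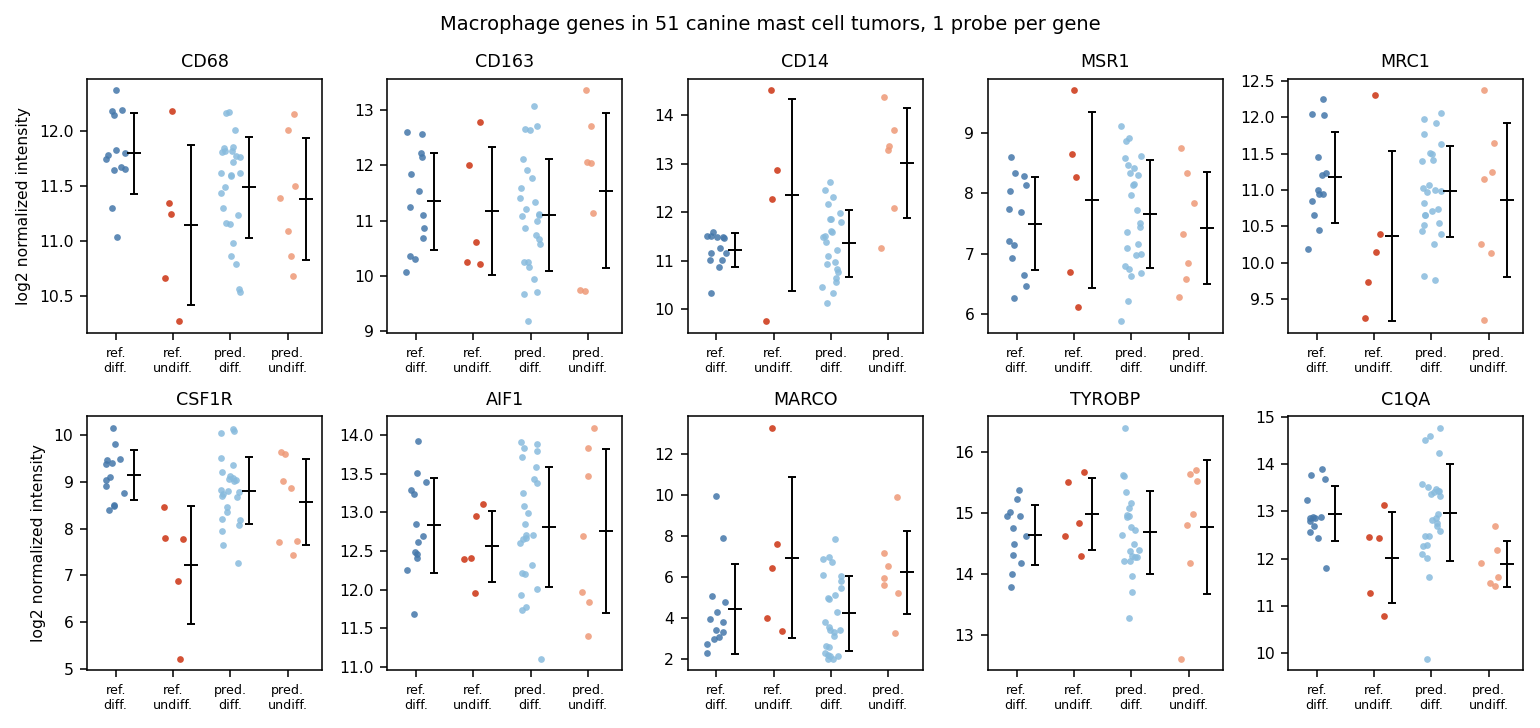
Log2 normalized intensity (y axis) of the 10 macrophage genes in 51 tumors, with the brighter probe where a gene had 2; each point is a tumor, horizontal bars are group means and vertical bars ± 1 SD of the reference differentiated (13), reference undifferentiated (5), predicted differentiated (26) and predicted undifferentiated (7) tumors, without spots set to missing. CSF1R of the undifferentiated reference tumors lies between 5.22 and 8.46, below most of the other tumors, and CD14 of the predicted undifferentiated tumors reaches 14.36.

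In the reference samples, where the classes were set by histology, CSF1R was lower in undifferentiated than in differentiated MCTs by 1.92 on the log2 scale, 3.77-fold. The level of its brighter probe (A_11_P0000032429) was 5.22 in T9, 6.88 in LM0, 7.77 in T90, 7.80 in T73 and 8.46 in T57. In the 13 differentiated tumors it was 8.40 at the lowest, 9.11 at the median and 10.15 at the highest. All but T57 of the undifferentiated tumors were thus below every differentiated tumor, and T57 lay just above the lowest of them. The group means were 7.23 ± 1.26 (SD, n = 5) and 9.14 ± 0.53 (SD, n = 13), the difference had a standard error of 0.39 (95% interval -2.74 to -1.09) and limma's adjusted p was 0.00651, with an exact permutation p of 0.000233 for the single probe.

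The other CSF1R probe was measured in 4 undifferentiated reference tumors, at 4.72 in T9, 5.00 in LM0, 6.56 in T73 and 6.93 in T57, with the spot of T90 flagged and left out. In the differentiated tumors it ranged from 6.49 to 8.39 with a median of 7.41, so that T9 and LM0 were below all of them and T73 and T57 inside their range. Its difference of -1.71 ± 0.38 (SE) missed the threshold, with an adjusted p of 0.0119 (exact permutation p = 0.0021). Across the 45 tumors in which both were measured, the levels of these 2 probes correlated with r = 0.87. T9 was the lowest of all tumors on both of them. The difference of the less bright probe was -2.09 without T57 (adjusted p = 0.00345, past the threshold), -1.35 without T9 (adjusted p = 0.0535), -1.44 without LM0 (adjusted p = 0.0548), -0.70 with background correction by normexp (adjusted p = 0.0243) and -1.09 with slide as a block (adjusted p = 0.448).

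The brighter CSF1R probe was the only one of the 15 member probes called in the reference comparison (6.67%, 9 probes lower and 6 higher), against 1.8% of the 43580 probes tested in both directions and 0.858% lower. The call was narrow: without LM0 the difference was -1.83 (adjusted p = 0.0226) and without T9 -1.41 (adjusted p = 0.0119), both short of the threshold, and with scan session as a block it was -1.64 (adjusted p = 0.0723) and with slide as a block -1.25 (adjusted p = 0.273). Within scan sessions holding both classes, undifferentiated tumors were lower in 7 of 7 for this probe and in 6 of 6 for the other, by 0.18 to 2.14 and 0.39 to 2.47 on the log2 scale. Within slides holding both classes they were lower in 8 of 10 and 7 of 8, with differences from -3.01 to 0.99 and from -2.79 to 0.37.

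In the predicted samples the difference in CSF1R was smaller than in the reference samples on both probes. The brighter probe ran from 7.45 over a median of 8.86 to 9.64 in the 7 predicted undifferentiated tumors and from 7.26 over 8.81 to 10.13 in the 25 predicted differentiated ones measured. The groups overlapped over nearly their whole range. The difference was -0.24 ± 0.32 (SE, 95% interval -0.89 to 0.41, adjusted p = 0.755). For the other probe it was -0.64 ± 0.30 (SE), with a 95% interval of -1.26 to -0.015 that excludes 0. Its limma p was 0.045 unadjusted and 0.246 adjusted, and its exact permutation p was 0.0504. The undifferentiated values of that probe (5.87 to 8.04, 6 tumors) were below the differentiated median of 7.54 in 5 of 6. By group mean of the brighter probe the order was reference undifferentiated (7.23), predicted undifferentiated (8.57), predicted differentiated (8.81), reference differentiated (9.14), and neighbors from the predicted undifferentiated group upward were less than 1 SD apart.

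Tested as such, the class difference of the brighter probe was 1.67 on the log2 scale more negative in the reference than in the predicted tumors (SE 0.51), which had p = 0.00205 but an adjusted p of 0.156, not past the threshold. None of the 15 member probes was called in this test, against 0.00459% of all probes, and 2 had an unadjusted p under 0.05, both of CSF1R. Over all 51 tumors, which include those of both comparisons, the differences were -0.91 ± 0.27 (SE, adjusted p = 0.0187) and -1.06 ± 0.25 (SE, adjusted p = 0.00263), so that here the less bright probe (A_11_P156148) was called. That call fell short of 2-fold or of the adjusted p when LM0 (-0.91), T9 (-0.88) or T77 (-0.98) was left out. It also fell short with background correction by normexp (-0.50), scan session as a block (-0.94, limma adjusted p = 0.0128) or flagged spots kept (-0.88). The same held with only the flags of the spot itself used (-0.88). Both that setting and the main flag rule were chosen after results under both had been seen.

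CD14 moved the other way. The probe shown above (A_11_P054431) was at 12.28 in T57, 10.72 in LM0, 10.16 in T90 and in T73 and 8.01 in T9, against 9.02 to 10.03 (median 9.67) in the 13 differentiated reference tumors. Undifferentiated reference tumors were above all differentiated ones in 4 of 5, while T9 was below all. The difference of 0.67 ± 0.41 (SE) did not pass (adjusted p = 0.343), nor did that of the brighter probe A_11_P174363, 1.13 ± 0.51 (SE, adjusted p = 0.196), on which T57 was at 14.50, LM0 at 12.88, T73 at 12.28 and T9 at 9.75, with T90 left out. Without T9 the difference of the brighter probe was 1.998 with an adjusted p of 0.00292, past the threshold, while without T57 it was 0.41 (adjusted p = 0.599), and that of A_11_P054431 went to 1.23 without T9 and 0.17 without T57 (adjusted p = 0.798).

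In the predicted samples both CD14 probes were called, 3.11-fold and 3.13-fold higher in the undifferentiated tumors. Levels of A_11_P054431 were 9.30 at the lowest, 11.39 at the median and 12.77 at the highest in the 6 undifferentiated tumors measured and 8.70, 9.47 and 10.50 in the 26 differentiated ones, so that 4 of 6 were above every differentiated tumor. Those of A_11_P174363 were 11.26, 13.31 and 14.36 in 6 undifferentiated tumors against 10.14, 11.44 and 12.63 in 24 differentiated ones, again with 4 of 6 above all. The differences were 1.63 ± 0.31 (SE, adjusted p = 0.00125, exact permutation p = 0.000184) and 1.65 ± 0.35 (SE, adjusted p = 0.00473, exact permutation p = 0.000239). They were the only 2 of 15 member probes called, against 0.963% of the 43601 probes tested in both directions and 0.72% higher, and both are of a single gene and correlated with r = 0.96. Leaving out T114 brought them to 1.45 (adjusted p = 0.0118) and 1.38 (adjusted p = 0.0378), neither past the threshold. With age as a covariate they were 1.53 (adjusted p = 0.014) and 1.62 (adjusted p = 0.0191), again short of it. That fit also left out T132 and T14, whose ages were not given. The covariate and the loss of these tumors cannot be told apart there. Leaving out T115, T132 or T80 left 1 of the 2 called.

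Over the 51 tumors the CD14 differences were 1.22 ± 0.25 (SE, adjusted p = 0.000552) and 1.45 ± 0.29 (SE, adjusted p = 0.000473), 2.34-fold and 2.72-fold. Within the scan sessions holding both classes, the undifferentiated tumors were higher on A_11_P054431 in 7 of 7, by 0.46 to 2.47; on the brighter probe they were higher in 5 of 6, the exception being the session in which T9 was the undifferentiated tumor measured (-1.66). Within slides they were higher in 8 of 10 (-1.77 to 3.51) and in 7 of 8 (-2.34 to 2.46). The class difference of CD14 did not differ detectably between reference and predicted tumors (A_11_P054431, -0.97 ± 0.50 SE, p = 0.0599, adjusted p = 0.393). CD14 is carried by monocytes and to a lesser degree by neutrophils as well as by macrophages, and markers of neutrophils moved with it. All 5 neutrophil genes measured were higher in the class comparison, with a median log2 fold change of 2.95. That median is the value of CSF3R, which was measured in 15 of 51 tumors, and CAMP was at 0.14 (adjusted p = 0.893). IL8RB, the neutrophil chemokine receptor (2.37, adjusted p = 1.18e-06), and S100A9, a calgranulin (4.03, adjusted p = 0.00121), were called. The mean log2 level of the neutrophil list was 7.20 to 12.57 in predicted undifferentiated and 6.03 to 11.31 in predicted differentiated tumors, none of the 5 genes was below background on all arrays, and their part in the CD14 difference was not tested.

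**Figure D2:**
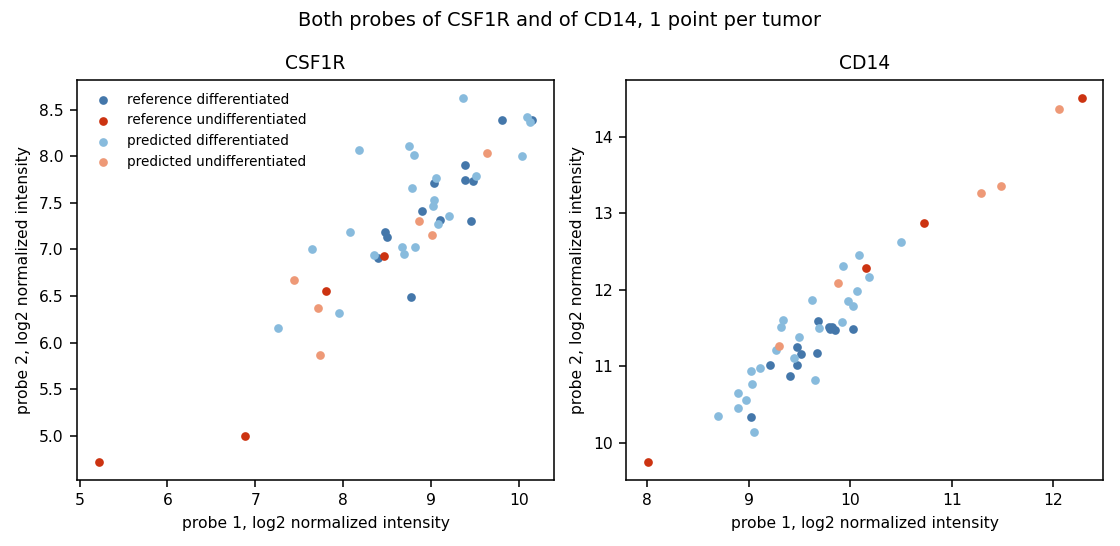
Log2 normalized intensity of the 2 probes of CSF1R (left; probe 1 A_11_P0000032429, probe 2 A_11_P156148) and of CD14 (right; probe 1 A_11_P054431, probe 2 A_11_P174363) in each tumor where both were measured, colored by group. The lowest point of both panels is T9, an undifferentiated reference tumor, and the highest CD14 values, up to 14.50, are those of undifferentiated tumors.

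C1QA was lower in undifferentiated tumors of both kinds, without passing the threshold. Its level was 10.78 in T57, 11.26 in T9, 12.44 in T90, 12.46 in T73 and 13.14 in LM0, against 11.81, 12.87 and 13.90 as the lowest, median and highest value in differentiated reference tumors. In the 6 predicted undifferentiated tumors measured it was 11.42, 11.76 and 12.68, and in the 26 predicted differentiated ones 9.87, 12.90 and 14.77. All 6 of the former lay below the median of the latter, while the ranges overlapped. The differences were -0.94 ± 0.35 (SE, adjusted p = 0.117), -1.10 ± 0.42 (SE, adjusted p = 0.13) and, over all tumors, -1.03 ± 0.29 (SE, adjusted p = 0.0125, permutation p = 0.00109), 2.04-fold.

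Over all tumors 10 of 11 undifferentiated tumors measured for C1QA were below the differentiated median, and in scan sessions holding both classes they were lower in 6 of 6, by 0.32 to 2.74, and within slides in 8 of 9, from -3.07 to 0.26. With slide as a block the differences were -0.28 (adjusted p = 0.858) in the reference samples, -0.37 (adjusted p = 0.877) in the predicted samples and -1.001 (adjusted p = 0.0585) over all tumors, and in the predicted samples -0.68 (adjusted p = 0.611) with scan session as a block. In the class comparison C1QA was called in 6 alternative settings, those with an adjusted p under 0.05 included. Another was the use of only the flags of the spot itself, not of its background. That setting, like the main flag rule, was chosen after seeing the data. It gave -1.03 (adjusted p = 0.00781), and there the CSF1R probe A_11_P156148 was not called. Leaving out LM0 also took C1QA past the threshold (-1.14, adjusted p = 0.00747). The other C1q chains, C1QB (-0.50 ± 0.40 SE, adjusted p = 0.489) and C1QC (-0.62 ± 0.32 SE, adjusted p = 0.21), were not past it in the same comparison.

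MARCO was well above background in 25 of 51 tumors, so that its differences rest in part on signals near background. It was above background in 3 of 5 undifferentiated and 5 of 13 differentiated reference tumors and in 6 of 7 and 11 of 26 predicted ones. Its level was 13.29 in LM0, the highest of all 51 tumors, 7.61 in T57, 6.43 in T90, 4.03 in T73 and 3.39 in T9, against 2.29 to 9.97 (median 3.82) in differentiated reference tumors, and 3.26 to 9.89 (median 5.96) against 2.01 to 7.85 (median 3.71) in the predicted ones. The groups overlapped in each case. The differences were 2.52 ± 1.37 (SE, adjusted p = 0.287), 2.01 ± 0.77 (SE, adjusted p = 0.123) and, over all tumors, 2.21 ± 0.71 (SE, adjusted p = 0.0264); without LM0 the first was 0.93. They depended on the processing: with background correction by normexp they were 1.30, 0.63 and 0.90 (adjusted p = 0.343, 0.139 and 0.0606), the first was 0.32 (adjusted p = 1) with slide and 0.80 (adjusted p = 0.776) with scan session as a block, and the second 3.56 (adjusted p = 0.0188) and 2.78 (adjusted p = 0.0445).

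In the class comparison 3 of the 15 member probes were called, 2 higher (both of CD14) and 1 lower (of CSF1R), against 2.3% of the 43602 probes tested (1.26% higher and 1.03% lower). At an adjusted p under 0.05 with no limit on the fold they were 6 of 15, against 13.9% of all probes: both of CD14 and MARCO higher, both of CSF1R and C1QA lower. Members thus went in both directions, and over 1 probe per gene, 5 of 10 genes had a positive difference, and the median of the log2 fold changes was -0.06 beside -0.01 over all probes. In the reference comparison this median was -0.22 (all probes 0.03) and in the predicted comparison -0.08 (all probes -0.04).

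**Figure D3:**
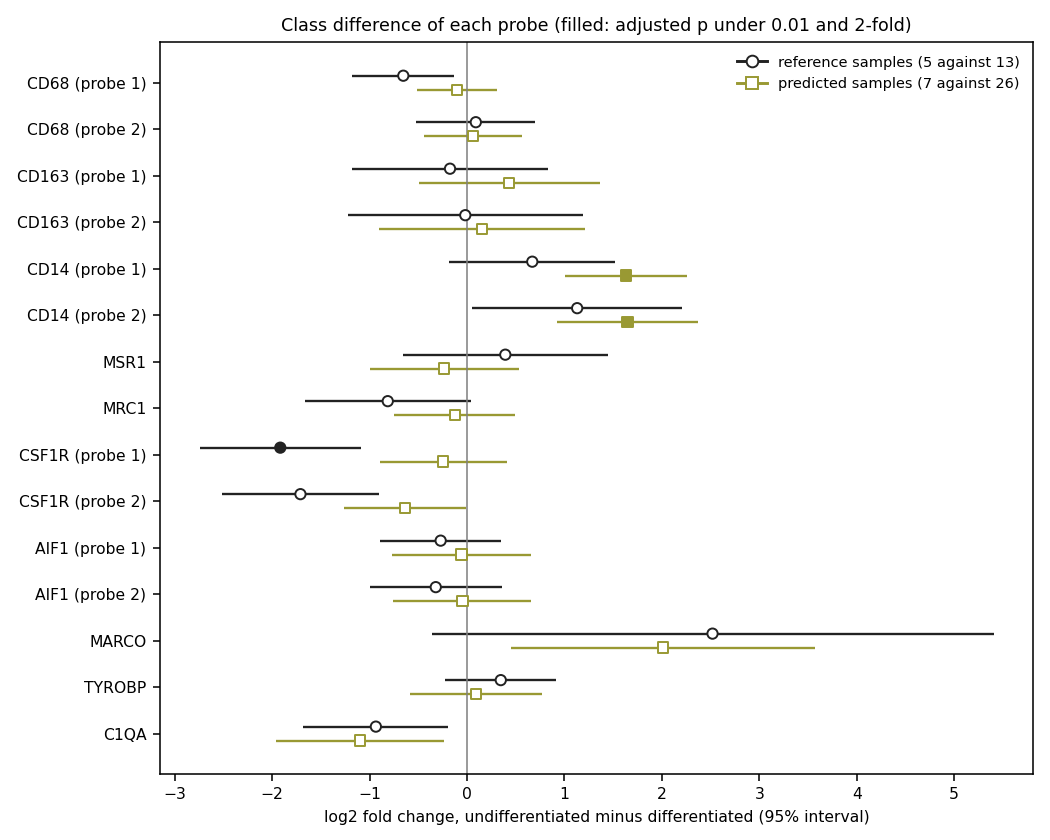
Log2 fold change (x axis, undifferentiated minus differentiated) of the 15 member probes in the reference samples (circles, 5 against 13 tumors) and the predicted samples (squares, 7 against 26 tumors), with 95% intervals; filled symbols mark called probes (2-fold or more, adjusted p under 0.01). Filled are CSF1R probe 1 in the reference and both CD14 probes in the predicted samples, and the intervals of AIF1, CD163, MSR1 and TYROBP all include 0.

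The lysosomal marker CD68 was not called, and its 2 probes gave different values. On the brighter probe the level was 10.27 in T9, 10.67 in T90, 11.25 in LM0, 11.35 in T57 and 12.18 in T73, against 11.04 to 12.37 (median 11.78) in the differentiated tumors, a difference of -0.65 ± 0.25 (SE, adjusted p = 0.119). On the other probe the difference was 0.09 ± 0.29 (SE, adjusted p = 0.885), and the 2 probes correlated with r = 0.66 over the tumors, the lowest of the 5 pairs of probes. In the predicted samples the differences were -0.10 ± 0.20 and 0.06 ± 0.25 (SE), with intervals of -0.51 to 0.31 and -0.44 to 0.57.

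The hemoglobin scavenger receptor CD163, the actin-binding protein AIF1 and the adaptor TYROBP showed little difference between classes. For CD163 the differences over all tumors were 0.19 ± 0.34 (SE, 95% interval -0.49 to 0.88) and 0.09 ± 0.39 on probes that correlated with r = 0.995. For AIF1 they were -0.14 ± 0.25 (SE, 95% interval -0.64 to 0.35) and -0.16 ± 0.25, with r = 0.99 between the probes, and for TYROBP 0.19 ± 0.23 (SE, 95% interval -0.27 to 0.66). None of these was called. MSR1, the class A scavenger receptor, was at 9.71 in T73, 8.65 in LM0, 8.28 in T9, 6.70 in T90 and 6.11 in T57, which spans more than the differentiated reference tumors did (6.26 to 8.60); its difference over all tumors was 0.01 ± 0.30 (SE, 95% interval -0.60 to 0.63). The mannose receptor MRC1 was at 12.31 in T57 and at 9.23 to 10.39 in the other undifferentiated reference tumors, against 10.19 to 12.26 in differentiated ones, a difference of -0.81 ± 0.40 (SE, adjusted p = 0.242).

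All 5 undifferentiated reference tumors were below the median of the differentiated ones for CSF1R (brighter probe). For CD68 (brighter probe), MRC1 and C1QA 4 of 5 were below it, and for MARCO and CD14 (A_11_P054431) 4 of 5 were above it. For CD163, MSR1, AIF1 and TYROBP they fell on both sides. The order of these tumors among themselves differed from gene to gene. T57 was highest among the 5 for CSF1R, CD14, MRC1 and AIF1 and lowest for MSR1 and C1QA. LM0 was highest for MARCO, CD163 and C1QA. T9 was lowest for CSF1R, CD14, CD68, MARCO and CD163, and T73 was highest for CD68 (brighter probe), MSR1 and TYROBP.

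Among 52 further macrophage genes looked for, 38 were on the array under their symbol. In the reference comparison 1 of them was called higher, FCGR1A, the high-affinity receptor for IgG (2.51 ± 0.49 SE, adjusted p = 0.00524), and 3 lower: IL34, a ligand of CSF1R that epidermal cells make in skin (-1.84 ± 0.28 SE, adjusted p = 0.000735), LIPA, the lysosomal acid lipase (-1.43 ± 0.21 SE, adjusted p = 0.000577), and STAB1, a scavenger receptor of macrophages and sinusoidal endothelium (-1.10 ± 0.21 SE, adjusted p = 0.00422). Their median was -0.25, with 28 of 38 lower. Over all probes the median was 0.03, with 20148 of 43580 lower, and 0.939% were called higher and 0.858% lower. In the predicted comparison 0 of 38 were called by limma, at a median of -0.16, beside 0.963% called and a median of -0.04 over all probes. In the class comparison APOE, the lipid-carrying apolipoprotein (-1.11 ± 0.28 SE, adjusted p = 0.005), and IL34 (-1.27 ± 0.23 SE, adjusted p = 7.36e-05) were called lower, with 25 of 38 lower and a median of -0.16. Over all probes 22601 of 43602 were lower there, at a median of -0.01, and 1.03% were called lower. IL34 in the predicted samples was at -0.90 ± 0.31 (SE, adjusted p = 0.0826). CSF1, the other ligand, was among the genes looked for but was not found on the array under its symbol, so it was not measured here.

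Markers of other cells gave the following in the reference, predicted and class comparison, in which 1.8%, 0.963% and 2.3% of all probes were called. The proliferation list had 5 of 6 genes called higher in each, with medians of 2.44, 1.68 and 1.99; the mitotic index had served to choose the reference samples. The neutrophil list had medians of 3.11, 2.91 and 2.95 over 5 genes, each the value of CSF3R, with CAMP at -0.24 in the predicted samples and IL8RB called in the reference (2.81, adjusted p = 0.00938) and predicted samples (2.01, adjusted p = 0.00163). Genes of dendritic cells had medians of -0.99, -0.45 and -0.59 and genes of mast cells of -0.0047, -0.74 and -0.56, with 0 called of 7 and 8. Fibroblast genes had medians of -0.80, 0.23 and -0.10, with DCN called lower in the reference samples (-1.38, adjusted p = 0.00219, measured in 39 of 51 tumors). Keratinocyte genes, of which the skin above the tumor is a source, had medians of -2.22, 2.21 and 0.43 over 4 genes, eosinophil genes of -0.38, -0.76 and -0.61, T cell genes of -0.22, -0.12 and -0.08 and endothelial genes of 0.09, 0.01 and 0.03, none called. The part of any of them in the differences of CSF1R, C1QA and IL34 was not tested.

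Levels of the macrophage genes tended to go together from tumor to tumor, more for some pairs than for others. How often other genes on these arrays correlate as closely was not computed. Of the 45 pairs of the 10 genes, all had a Pearson r above 0 over the tumors and 29 had a permutation p under 0.05 after Benjamini-Hochberg adjustment, with a median r of 0.43. The closest pairs were CD163 with MARCO (r = 0.68, Spearman rho = 0.72, both with permutation p = 1e-05, the smallest that 1e+05 resamples can give, adjusted 7.5e-05 and 5.62e-05) and MRC1 with AIF1 (r = 0.66, rho = 0.67, the same permutation p, adjusted 7.5e-05 and 5.62e-05). Leaving out the 2 tumors farthest from the median gave r = 0.70 and 0.62. CD163 was past the threshold with all 9 partners and AIF1 with 8. MARCO was above background in 25 of 51 tumors, so that its correlations rest in part on signals near background.

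By Pearson r CD14 had the fewest partners past the threshold, 2 of 9. They were MARCO (r = 0.63, rho = 0.70, permutation p = 3e-05 and 1e-05, adjusted 0.00015 and 5.62e-05, and r = 0.63 without the 2 farthest tumors) and CD163 (r = 0.53, rho = 0.58, permutation p = 0.00016 and 5e-05, adjusted 0.00045 and 0.000187, and r = 0.50 without them). The median r of CD14 was 0.26, beside 0.28 for MARCO and 0.30 for TYROBP. By Spearman rho CD14 was also past the threshold with MSR1 (rho = 0.39, adjusted permutation p = 0.0112) and CD68 (rho = 0.31, adjusted permutation p = 0.0472). With C1QA it had r = 0.00 (rho = 0.14, permutation p = 0.98 and 0.362) and with CSF1R r = 0.09 (rho = 0.06, permutation p = 0.556 and 0.71). CSF1R and MARCO were likewise near 0 (r = 0.04, rho = 0.11, permutation p = 0.778 and 0.427). Within the 4 groups, as deviations from the group means, 43 of 45 pairs were past the threshold with a median r of 0.50, and CD14 then had r = 0.36 with C1QA and 0.47 with CSF1R. Within scan sessions 30 pairs were past it with a median r of 0.46, and CD14 had r = -0.03 with C1QA and 0.07 with CSF1R.

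**Figure D4:**
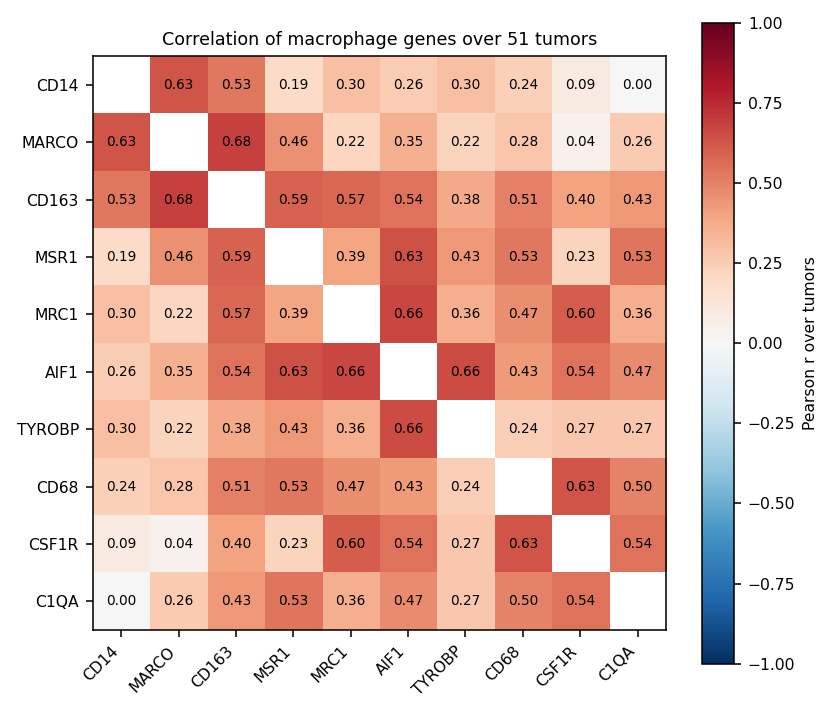
Pearson r between the 10 macrophage genes over the tumors (43 to 51 per pair), 1 probe per gene; color and printed value give r from -1 to 1, and the order of genes is the same on both axes. The row of CD14 is palest at C1QA (0.00) and CSF1R (0.09), and CD163 with MARCO (0.68) is the highest value. MARCO was above background in 25 of 51 tumors.

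The mean of the members' z-scores, a measure of their joint level, ran from -1.59 to 1.24 in predicted differentiated, -1.44 to 1.16 in predicted undifferentiated, -0.78 to 1.12 in reference differentiated and -1.19 to 0.38 in reference undifferentiated tumors, with medians of -0.02, 0.16, 0.07 and 0.22. The group ranges overlapped almost throughout. Of 9990 other genes, those most like it by Pearson r were NPL (0.82), MPP1 (0.81), FCGR3A (0.81), CYBA (0.81), TCN2 (0.80), TFEC (0.80), CTSS (0.80), AP2A2 (0.78), CCL23 (0.78) and IL13RA1 (0.78), over 46 to 51 tumors. Among the single members, looked at after their values had been seen, CSF1R was most like IL13RA1 (0.89 over 50 tumors), C1QA most like C1QC (0.93 over 50 tumors) and CD14 most like HRB (0.85 over 46 tumors) and CLEC4E, a C-type lectin of myeloid cells (0.80 over 47 tumors). These are descriptions over the same tumors, with no test.

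Sex and age moved none of the genes detectably. Among 19 male and 30 female dogs, with the 4 groups as a covariate, limma called 0 of 15 member probes, against 0.0275% of all probes, and 0 had an unadjusted p under 0.05. MARCO was 0.82 higher on the log2 scale in males (SE 0.67, adjusted p = 0.807), at 2.16 to 13.29 (median 5.09) in males and 2.01 to 7.85 (median 4.00) in females. Per year of age, over 49 dogs, 0 of 15 member probes had an adjusted p under 0.05 in limma and 0 an unadjusted one, beside 2.81% of all probes with an unadjusted p under 0.05.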

How the data were processed

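Tumor RNA was amplified, labeled with Cy3 and hybridized by the authors, who scanned each array at 2 sensitivities and extracted it with Agilent Feature Extraction. The deposited processed signal of each of the 51 arrays is an intensity, background-subtracted and detrended within the array and not normalized between arrays. A deposited series-wide set of intensities, which the authors describe as quantile-normalized in a joint run, served as an alternative. Its array medians ran from 118.4 to 176.7, and 213003 of its values were missing, 4322 of them flagged spots.

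Here the deposited intensities were converted to log2 levels and quantile-normalized in a joint run of all arrays. Controls were left out, spots flagged as outliers in signal or background (718 to 3291 on an array) were removed and repeated spots averaged, giving 43603 probes. Flagged background was included to follow an earlier analysis of these data, after results under both definitions had been seen. Groups were compared with limma 3.58.1 (R 4.3.3, statmod 1.5.0) and Benjamini-Hochberg adjustment over all probes; a call needed an adjusted p under 0.01 and 2-fold, the thresholds of the study, whose SAM test was not run. The class comparison had reference or predicted as a term, and it shares all arrays with the other comparisons. Single probes were also tested by 2-sided permutation of tumors (exact for the reference and predicted samples, 1e+05 resamples otherwise) and correlations by 1e+05 resamples, in Python 3.11.15 with numpy 2.4.6 and scipy 1.17.1; figures were drawn with matplotlib 3.10.9 and pandas 2.3.3. The limma step was tested on simulated data before use.

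Classes came from the study's table of reference samples and its class prediction, joined by case number, with LM0 placed by elimination. Predicted classes rest on expression of the same arrays, so they are not independent of it. The members and the gene lists were chosen with earlier results of these data known. Named are all member probes, listed genes of other kinds where called, IL34, and the 10 genes most like the members' mean z-score, taking genes with a symbol that were above background on at least 26 arrays; of 3211 LOC names, 2235 were renamed through RefSeq, MRC1 among them. C1QB and C1QC were named, and genes most like single members sought, after their values were seen. Columns left unmapped numbered 0. Each tumor is from a different dog, p-values measure the spread between tumors, and the number of arrays limits the precision. Alternatives were other normalizations, background correction, filters, flags, blocks, covariates and thresholds, and leaving out tumors.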

Additional observations from a re-analysis of the deposited data

How the results depend on the processing

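No paired analysis was possible because each tumor has a case number of its own. The scalings tried moved the median of all probes by less than 0.1 on the log2 scale. In the reference comparison the 1 member called became 2 with 75th percentile scaling, with dim probes left out and at an adjusted p under 0.05 with or without 2-fold, always of CSF1R, and 0 with the authors' table (-1.41, adjusted p = 0.0108), slide or scan session as a fixed block, or sex or age as a covariate; leaving out each undifferentiated tumor gave 0 to 2, with CD14 in place of CSF1R called without T9 and 0 without LM0. In the predicted comparison the 2 calls became 1 with scan session as a block or sex as a covariate and 0 with age as a covariate. These covariate fits also dropped the tumors without a stated value, T53 and T132 for sex and T14 and T132 for age. The calls became 0 to 2 with each undifferentiated tumor left out (1 without T115, T132 or T80, and 0 without T114, chosen after seeing the data). In the class comparison the 3 calls became 6 and 5 at an adjusted p under 0.05 without and with 2-fold, and 2 to 4 with each undifferentiated tumor left out. Of the 45 correlations, 28 to 43 were past the threshold, and all alternatives left 0 members called by sex. The cause of these changes was not tested.

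Among all probes, 783, 420 and 1001 were called in the reference, predicted and class comparison, against 410, 204 and 428 with normexp, 58, 72 and 908 with slide as a fixed block, 303, 151 and 904 with scan session as a fixed block, and 3353, 2426 and 6054 at an adjusted p under 0.05 (1695, 802 and 1373 with 2-fold). With age as a covariate, and so without T14 and T132, 243 were called in the predicted comparison. The share called higher went from 52.2% to 75.9% with slide as a block in the reference comparison, and in the predicted one from 74.8% to 95.8% with slide, 90.7% with session and 55.5% and 64.5% at an adjusted p under 0.05 without and with 2-fold.

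Directions turned only for probes with no call in the comparison concerned. In the reference comparison CD163 A_11_P066351 was at 0.017 with 75th percentile scaling and CD68 A_11_P213138 at -0.41 with slide and -0.065 with session as a fixed block. With each undifferentiated tumor left out, CD68 A_11_P213138 ran from -0.15 to 0.28, CD163 from -0.58 to 0.064 and from -0.52 to 0.40, and MSR1 from -0.063 to 0.84. In the predicted comparison, with each undifferentiated tumor left out, CD68 ran from -0.23 to 0.012 and from -0.060 to 0.19. CD163 A_11_P066351 ran from -0.17 to 0.47, MRC1 from -0.38 to 0.15, TYROBP from -0.061 to 0.45 and both AIF1 probes from -0.28 to 0.17. AIF1 was at 0.026 and 0.036 there with slide as a random block. With slide as a fixed block CD68 A_11_P0000032672 was at 0.28, MSR1 at 0.47, MRC1 at 0.42, CSF1R A_11_P0000032429 at 0.069 and AIF1 at 0.50 and 0.51. With session as a fixed block CD68 was at 0.11, MSR1 at 0.0062 and AIF1 at 0.087 and 0.086. With sex as a covariate CD68 was at 0.018 and TYROBP at -0.16, and with age CD68 at 0.015, CD163 A_11_P066351 at -0.014, MRC1 at 0.074, AIF1 A_11_P090661 at 0.016 and TYROBP at -0.049. In the class comparison MSR1 was at -0.012 with 75th percentile scaling, -0.038 with slide as a random and -0.16 as a fixed block, -0.066 with session, -0.042 with sex as a covariate and -0.078 without LM0. There CD163 A_11_P066351 was at -0.021 with slide as a fixed block, -0.0011 with session, -0.064 with sex, -0.0016 with age and -0.076 without LM0. Over all tumors left out in turn in that comparison, MSR1 ran from -0.17 to 0.15, CD163 A_11_P066351 from -0.10 to 0.26 and CD68 A_11_P213138 from -0.011 to 0.15.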
